A study of Saccharomyces pastorianus with 12 samples.

Results

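The 10 genes described here encode the enzymes that build and break down glycogen in yeast and the phosphatase subunits that act on glycogen synthase. They were chosen by symbol, and every deposited copy of each symbol was taken, alone or with a copy number behind it. This gave 18 copies of the 11277 copies with readable counts. GSY1, GSY2, GLG2, GLC3, GAC1 and PIG2 had 2 copies each, GPH1 had 3, and GLG1, GDB1 and PIG1 had 1. All 18 copies passed the filter on low counts, and the lowest count of any copy in any library was 23 reads.

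Saccharomyces pastorianus is a hybrid yeast used for lager brewing, and the libraries came from its strains SpIB1 and SpIB2. Both strains fermented a standard brewing wort at 16 °C and were collected on day 2 and day 5, with 3 libraries for each strain and day. The 4 groups are therefore SpIB1 on day 2, SpIB1 on day 5, SpIB2 on day 2 and SpIB2 on day 5, with no added agent and no engineered allele named in the labels. The study asked which genes lie behind differences between the strains in the use of maltose and maltotriose. The labels do not say whether the 3 libraries of a group came from separate fermentations, so each p-value is set against the spread of these samples alone, part of which may be technical.

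Glycogen is a branched store of glucose. Glycogenin (Glg1, Glg2) primes a chain, glycogen synthase (Gsy1, Gsy2) extends it from UDP-glucose, and the branching enzyme Glc3 adds branch points. Phosphorylase (Gph1) and the debranching enzyme Gdb1 release glucose units again. Glycogen synthase is switched off by phosphorylation, and type 1 phosphatase, brought to it by subunits such as Gac1, removes the phosphate. In brewing yeast, glycogen is known as a reserve that is filled and drawn down in the course of a fermentation.

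Library totals ran from 5133175 to 7922547 reads. Levels are given in CPM, read counts relative to the TMM-scaled library total, with the copies of a symbol summed unless a copy is named. Copies of a symbol can share reads, so single copies are uncertain. Gene lengths were not used, so levels are compared between samples and not between genes. The 3 libraries of each SpIB1 group correlated with each other at r from 0.963 to 0.989 over all copies. A pair of SpIB2 libraries stood apart from their group: replicate 3 of day 2, with r of 0.897 and 0.906 to the other two, and replicate 1 of day 5, with r of 0.923 and 0.915. The TMM factor of the latter was 0.509, against 0.868 to 1.35 in the other libraries. Where leaving out one or both of this pair moved a result widely, the value without them mostly stands beside it. A value not given is no sign of stability. In such bulk samples, fewer cells of a kind and less RNA per cell cannot be told apart.

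On day 5, 9 of the 10 genes were higher in SpIB2 than in SpIB1 and PIG1 was lower, by edgeR's quasi-likelihood test at an adjusted p under 0.05. Over the whole table, 28.3% of the 6171 symbols tested were called higher in this comparison and 26.7% lower. The median log2 difference of the 10 genes was 2.59, against 0.04 for all symbols. On day 2, none of the 10 genes was called, where 14.9% of all symbols were called higher and 13% lower. At an unadjusted p under 0.05, edgeR gave 1 higher and 0 lower on day 2, and DESeq2 called 1 higher and 0 lower. The shares of all symbols at these settings were not computed. Without both libraries that stood apart, edgeR called GLG1 (1.32, adjusted p = 0.00284) and GAC1 (1.22, 0.00497) higher. The median log2 difference on day 2 was 0.26, against 0.01 for all symbols.

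Between day 2 and day 5, 7 of the 10 genes rose in SpIB2 and none fell, where 22.2% of all symbols rose and 24.4% fell. In SpIB1 none of the 10 was called, where 0.891% of all symbols rose and 2.98% fell. For SpIB1, edgeR at an unadjusted p under 0.05 gave 1 higher and 1 lower, and so did DESeq2 after adjustment. How many of all symbols were called at these settings was not computed. The median log2 change from day 2 to day 5 was 2.27 in SpIB2, against -0.08 for all symbols, and -0.53 in SpIB1, against 0.00. The difference between the day changes was tested itself, as an interaction, and was higher in SpIB2 for 6 of the 10 genes and lower for none, where 15.8% of all symbols were called higher and 12.5% lower. The strain and day comparisons share libraries, so they are not separate pieces of evidence.

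The scaling matters for such counts. With library totals in place of TMM, the median of all copies moved by -0.75 on the log2 scale in the day 5 comparison of the strains, by 0.27 in the day change of SpIB1, by -0.44 in that of SpIB2 and by -0.71 in their difference. The split of all copies called higher and lower on day 5 went from 3191 and 2824 to 1502 and 4863. For the day change it went from 92 and 278 to 155 and 148 in SpIB1, and from 2325 and 2508 to 1311 and 3611 in SpIB2. For the difference it went from 1554 and 1265 to 692 and 2858. Of the 18 glycogen copies, 15 were called higher and 1 lower on day 5 with TMM, and 13 and 2 with library totals, beside 29.9% and 26.5% of all copies with TMM.

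**Figure D1:**
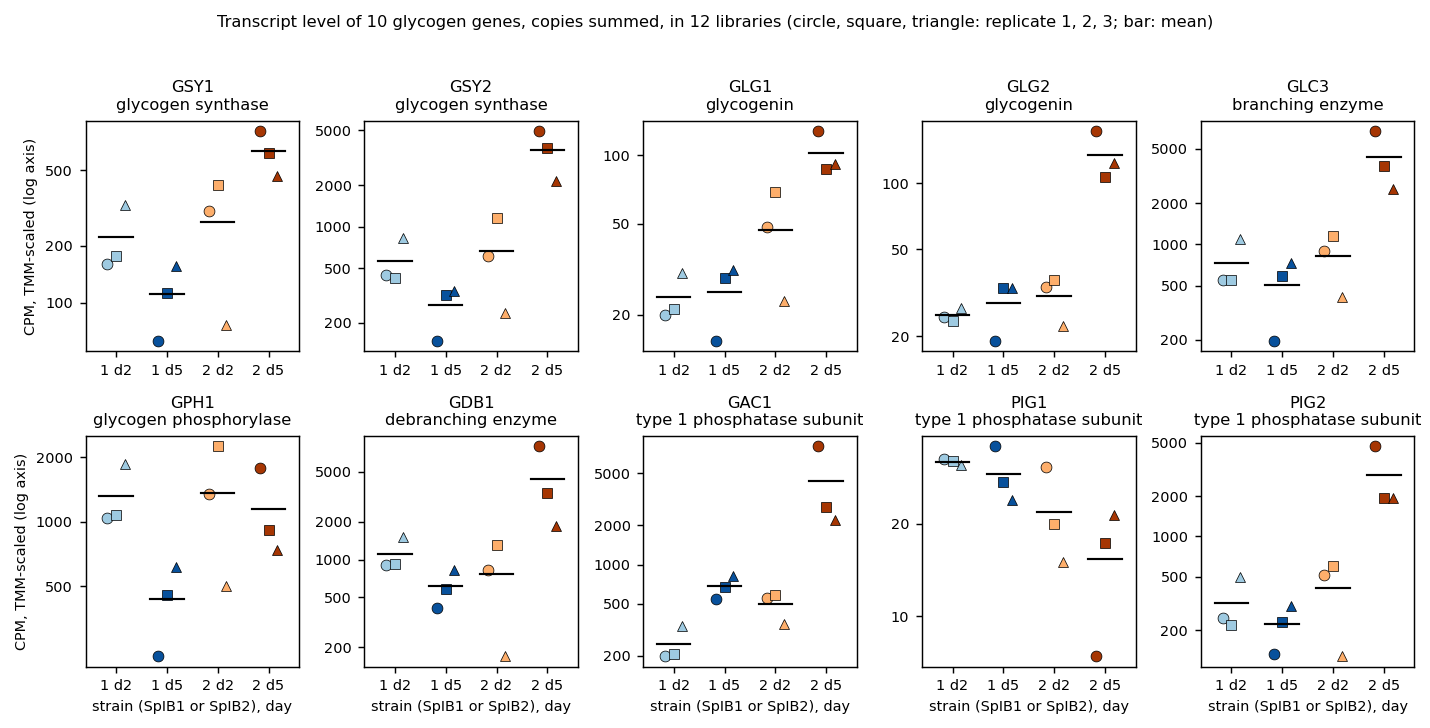
Transcript level of each gene in each library, in CPM on a log axis with copies summed, for SpIB1 (1) and SpIB2 (2) on day 2 (d2) and day 5 (d5). Marks are the 3 libraries of a group and bars their mean. GSY2 in SpIB2 on day 5 lies between 2142 and 4950 CPM, above all 9 other libraries, while GPH1 in that group overlaps SpIB2 on day 2.

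GLG1 and GLG2 encode glycogenin, the protein primer of glycogen. GLG1 stood at 19.9, 21.1 and 30.4 CPM in SpIB1 on day 2, 15.4, 28.9 and 31.5 on day 5, 48.6, 68.8 and 23.0 in SpIB2 on day 2, and 127.7, 87.3 and 91.3 on day 5. In TMM-scaled CPM, all SpIB2 libraries of day 5 lay above all other libraries. Per library total, SpIB2 day 5 replicate 1 (396 of 5726272 reads) lay just below SpIB2 day 2 replicate 2 (387 of 5558897). On day 5 GLG1 was 4.03-fold higher in SpIB2, a log2 difference of 2.01 ± 0.37 (SE, n = 3 per group, edgeR adjusted p = 0.000637), or 1.81 without the libraries that stood apart. Its rise in SpIB2 was 1.12 ± 0.36 on the log2 scale (edgeR adjusted p = 0.0225). It lost the call without SpIB2 day 5 replicate 1 (0.93, adjusted p = 0.0742 with edgeR), without SpIB2 day 2 replicate 3 (0.79, 0.0631), without both of these (0.61, 0.136), without SpIB2 day 2 replicate 1 (1.15, 0.0505), with only the libraries compared (1.15, 0.0516) and under scaling by library totals (0.68, 0.156). On day 2 GLG1 differed by 0.97 ± 0.37 (edgeR adjusted p = 0.0627), a call that was gained at 1.30 without SpIB2 day 2 replicate 3 (adjusted p = 0.00953), and at 0.97 without SpIB2 day 5 replicate 1 (0.0479).

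GLG2 gave 24.4, 23.4 and 26.9 CPM in SpIB1 on day 2, 19.0, 33.1 and 33.04 on day 5, 33.6, 36.1 and 22.2 in SpIB2 on day 2, and 173.4, 107.3 and 124.1 on day 5. The first 9 of these libraries lay in a narrow band, and the SpIB2 libraries of day 5 lay well above it. The day 5 difference between the strains was 2.24 ± 0.28 on the log2 scale, or 4.74-fold (edgeR adjusted p = 3.82e-05), and 2.02 without the libraries that stood apart. In SpIB2 GLG2 rose by 2.14 ± 0.28 (edgeR adjusted p = 0.000123), and by 1.73 without those libraries. The rise was larger than the change in SpIB1 by 1.95 ± 0.38 (edgeR adjusted p = 0.00453), the smallest standard error of the difference among the 10 genes. That value was 1.51 without the libraries that stood apart (edgeR adjusted p = 0.00511) and 1.22 with library totals (0.0348). With library totals the day 5 difference between the strains was 1.48 (edgeR adjusted p = 0.000708).

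GSY2 encodes, in Saccharomyces cerevisiae, the main glycogen synthase, and GSY1 the minor one. GSY2 stood at 444, 422 and 831 CPM in SpIB1 on day 2 and at 148, 321 and 344 on day 5. In SpIB2 it stood at 609, 1164 and 235 on day 2 and at 4950, 3733 and 2142 on day 5. The SpIB1 libraries of day 5 were all below those of day 2, and the SpIB2 libraries of day 5 were above all others. On day 5 GSY2 was 13.3-fold higher in SpIB2, the largest difference of the 10 summed genes (log2 3.74 ± 0.60, edgeR adjusted p = 0.000248), with 3.43 without the libraries that stood apart. It rose by 2.43 ± 0.57 in SpIB2 (edgeR adjusted p = 0.00443). That rise was 1.73 without the libraries that stood apart and 3.09 without SpIB2 day 2 replicate 2. In SpIB1 its day change was -1.06 ± 0.55 (edgeR adjusted p = 0.319), and the difference between the strains' day changes was 3.49 ± 0.79 (edgeR adjusted p = 0.00837), or 4.15 without SpIB2 day 2 replicate 2 and 2.77 without the libraries that stood apart.

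GSY1 gave 160.6, 176 and 326 CPM in SpIB1 on day 2, 63.1, 112 and 157 on day 5, 305, 418 and 76.4 in SpIB2 on day 2, and 802, 614 and 468 on day 5. On day 5 the strains did not overlap, and GSY1 was 5.67-fold higher in SpIB2 (log2 2.50 ± 0.55, edgeR adjusted p = 0.00191), or 2.28 on the log2 scale without the libraries that stood apart. Its day change in SpIB2 was 1.24 ± 0.53 (edgeR adjusted p = 0.0681) and was not called, though the libraries of the days did not overlap in TMM-scaled CPM. It was called with DESeq2 (1.30, adjusted p = 0.0243) and in edgeR without SpIB2 day 2 replicate 2 (1.72, 0.0319). It was smaller without SpIB2 day 2 replicate 3 (0.80, edgeR adjusted p = 0.151), without both libraries that stood apart (0.59, 0.274) and with library totals (0.77, 0.219). The difference of the day changes was 2.23 ± 0.74 (edgeR adjusted p = 0.0389), or 1.55 without both libraries that stood apart (0.0432). That difference is among the least stable calls. It was lost in 10 of 19 alternatives, library totals among them (1.49, edgeR adjusted p = 0.113). Among these were leaving out SpIB1 day 2 replicate 3 (1.83, adjusted p = 0.102), SpIB1 day 5 replicate 1 (1.95, 0.0881), SpIB2 day 5 replicate 1 (2.01, 0.0723), SpIB1 day 5 replicate 2 (2.24, 0.0738), SpIB2 day 2 replicate 1 (2.34, 0.0596), SpIB1 day 2 replicates 1 and 2 (2.41, 0.0507 and 2.37, 0.0548) and SpIB2 day 5 replicate 2 (2.25, 0.0506), each by edgeR.

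GLC3 encodes the branching enzyme. It stood at 552, 551 and 1091 CPM in SpIB1 on day 2, 197.4, 591 and 727 on day 5, 898, 1157 and 415 in SpIB2 on day 2, and 6723, 3703 and 2545 on day 5. Both groups of day 2 and the SpIB1 libraries of day 5 overlapped, and the SpIB2 libraries of day 5 lay above all of them. GLC3 was 8.56-fold higher in SpIB2 on day 5 (log2 3.10 ± 0.59, edgeR adjusted p = 0.00073), and 2.62 on the log2 scale without the libraries that stood apart. It rose by 2.39 ± 0.57 in SpIB2 (edgeR adjusted p = 0.0047), or 1.61 without those libraries. Between the strains the day changes of GLC3 differed by 2.93 ± 0.78 (edgeR adjusted p = 0.0167), or 2.11 without them.

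The genes of breakdown differed from each other. GDB1, for the debranching enzyme, gave 912, 922 and 1512 CPM in SpIB1 on day 2, 415, 587 and 833 on day 5, 819.6, 1300.4 and 171 in SpIB2 on day 2, and 7973, 3408 and 1843 on day 5. The SpIB2 libraries of day 5 again lay above all others, and SpIB2 day 5 replicate 1 was the highest of them. GDB1 was 7.21-fold higher in SpIB2 on day 5 (log2 2.85 ± 0.68, edgeR adjusted p = 0.00346), and 2.10 on the log2 scale without SpIB2 day 5 replicate 1 (adjusted p = 0.0137). In SpIB2 it rose by 2.53 ± 0.67 (edgeR adjusted p = 0.00874), by 1.78 without that library, by 3.15 without SpIB2 day 2 replicate 2 and by 1.31 without both libraries that stood apart. The difference of the day changes was 3.40 ± 0.93 (edgeR adjusted p = 0.0184), 2.65 without SpIB2 day 5 replicate 1, 4.02 without SpIB2 day 2 replicate 2 and 2.15 without both libraries that stood apart.

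GPH1 encodes glycogen phosphorylase, which releases glucose-phosphate from the chain ends. It stood at 1039, 1073 and 1863 CPM in SpIB1 on day 2, 236, 454 and 616 on day 5, 1343, 2250.1 and 503 in SpIB2 on day 2, and 1790.5, 913 and 738 on day 5. In TMM-scaled CPM every SpIB2 library of day 5 was above every SpIB1 library of that day, but the SpIB2 days overlapped. Per library total, SpIB2 day 5 replicate 3 (3422 of 5133175 reads) lay below SpIB1 day 5 replicate 3 (5928 of 7922547). Its day change was -0.25 ± 0.54 on the log2 scale in SpIB2 (edgeR adjusted p = 0.721) and -1.61 ± 0.55 in SpIB1 (edgeR adjusted p = 0.121). The SpIB2 value was -0.73 without SpIB2 day 5 replicate 1 (edgeR adjusted p = 0.318), -0.65 without SpIB2 day 2 replicate 3 (0.302), -1.12 without both (0.0593) and 0.31 without SpIB2 day 2 replicate 2 (0.671). In SpIB1 its 3 libraries of day 5 all lay below those of day 2. That change was called with DESeq2 (-1.59, adjusted p = 0.0329), and in edgeR with only the libraries compared (-1.59, adjusted p = 0.0199) or with the 2 SpIB2 libraries named above left out (-1.58, 0.0115). GPH1 day changes differed by 1.35 ± 0.76 (edgeR adjusted p = 0.187), by 0.88 without SpIB2 day 5 replicate 1, by 0.46 without both libraries that stood apart and by 0.55 with library totals.

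On day 5 GPH1 was 2.63-fold higher in SpIB2 (log2 1.40 ± 0.55, edgeR adjusted p = 0.0431). That call sat near the threshold and was lost in 10 of 20 alternatives, with adjusted p from 0.0131 to 0.344 over all of them. It was lost without SpIB2 day 5 replicate 1 (0.92, edgeR adjusted p = 0.166), without SpIB1 day 5 replicate 1 (1.05, 0.164), without SpIB1 day 5 replicate 2 (1.38, 0.0997), without SpIB1 day 2 replicates 1 to 3 in turn (1.40, 0.055, then 1.40, 0.0553, then 1.35, 0.0529) and without SpIB2 day 2 replicate 1 (1.40, 0.0522). With library totals it was 0.57 (edgeR adjusted p = 0.344) and without both libraries that stood apart 0.92 (0.0617).

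The phosphatase subunits differed among themselves. GAC1 encodes the subunit that directs type 1 phosphatase to glycogen synthase. It gave 199, 205 and 339 CPM in SpIB1 on day 2, 549.7, 676 and 820.2 on day 5, 555, 584 and 348 in SpIB2 on day 2, and 8078, 2747 and 2204 on day 5. Both strains had their higher libraries on day 5, without overlap, and SpIB2 day 5 replicate 1 stood far above its group. GAC1 rose by 3.13 ± 0.51 in SpIB2 (edgeR adjusted p = 0.000482), the largest rise of the 10 genes, and by 2.32 without that replicate. Its day change in SpIB1 was 1.46 ± 0.48 (edgeR adjusted p = 0.107). It was called without SpIB2 day 5 replicate 1 (1.46, edgeR adjusted p = 0.0146), with library totals (1.73, 0.0302) and with DESeq2 (1.48, 0.0236). On day 5 the strains differed by 2.67 ± 0.50 (edgeR adjusted p = 0.000649), or 1.86 without SpIB2 day 5 replicate 1. On day 2 they differed 2.0-fold (edgeR adjusted p = 0.125), called without SpIB2 day 5 replicate 1 (adjusted p = 0.0214). The difference of the day changes was 1.67 ± 0.67 (edgeR adjusted p = 0.0738), called without SpIB2 day 5 replicate 2 (1.91, 0.0491) or 3 (1.99, 0.0339). Without SpIB2 day 5 replicate 1 that difference was 0.86 (edgeR adjusted p = 0.179), without both libraries that stood apart 0.64 (0.272) and with library totals 0.81 (0.234).

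PIG2, which encodes a subunit related to Gac1, stood at 246, 218 and 493 CPM in SpIB1 on day 2, 132, 231 and 303 on day 5, 513, 599.9 and 128 in SpIB2 on day 2, and 4702, 1936 and 1944 on day 5. The 3 SpIB2 libraries of day 5 lay above all others. On day 5 PIG2 was 12.9-fold higher in SpIB2 (log2 3.69 ± 0.63, edgeR adjusted p = 0.00035), or 3.12 on the log2 scale without the libraries that stood apart. It rose by 2.79 ± 0.60 in SpIB2 (edgeR adjusted p = 0.00284), or 1.80 without them. Its day changes differed between the strains by 3.31 ± 0.82 (edgeR adjusted p = 0.0124), or 2.30 without them.

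PIG1 encodes another subunit related to Gac1 and was the exception to the direction of the others. It gave 32.5, 32.0 and 30.9 CPM in SpIB1 on day 2, 35.7, 27.2 and 23.9 on day 5, 30.5, 19.9 and 14.99 in SpIB2 on day 2, and 7.4, 17.3 and 21.4 on day 5. On each day the SpIB2 libraries lay below the SpIB1 libraries, and the lowest was SpIB2 day 5 replicate 1. In TMM-scaled CPM, 9 genes were highest within their group in that library, whose TMM factor was 0.509. It had the largest read total of its group, 5726272. Its unscaled reads were still below those of another library of the group for GSY2 (15355 against 17231), GSY1 (2489 against 2836), GLG1 (396 against 423) and GLG2 (538 against 575). For PIG1 the strains differed on day 5 by -0.89 ± 0.34 (edgeR adjusted p = 0.04). The call was lost in 9 of 20 alternatives, with adjusted p from 0.0109 to 0.108. Among them were the fits without SpIB2 day 5 replicate 1 (-0.58, edgeR adjusted p = 0.107), SpIB1 day 5 replicate 1 (-0.76, 0.108), SpIB2 day 5 replicate 2 (-0.98, 0.0589), SpIB1 day 5 replicate 2 (-0.97, 0.0514) and SpIB1 day 2 replicates 1 and 2 (-0.89, 0.0541 and -0.89, 0.0538). Its day changes were -0.14 ± 0.33 in SpIB1 (edgeR adjusted p = 0.869) and -0.48 ± 0.34 in SpIB2 (edgeR adjusted p = 0.266). The SpIB2 value was -0.17 without SpIB2 day 5 replicate 1 and -0.69 without SpIB2 day 2 replicate 3.

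**Figure D2:**
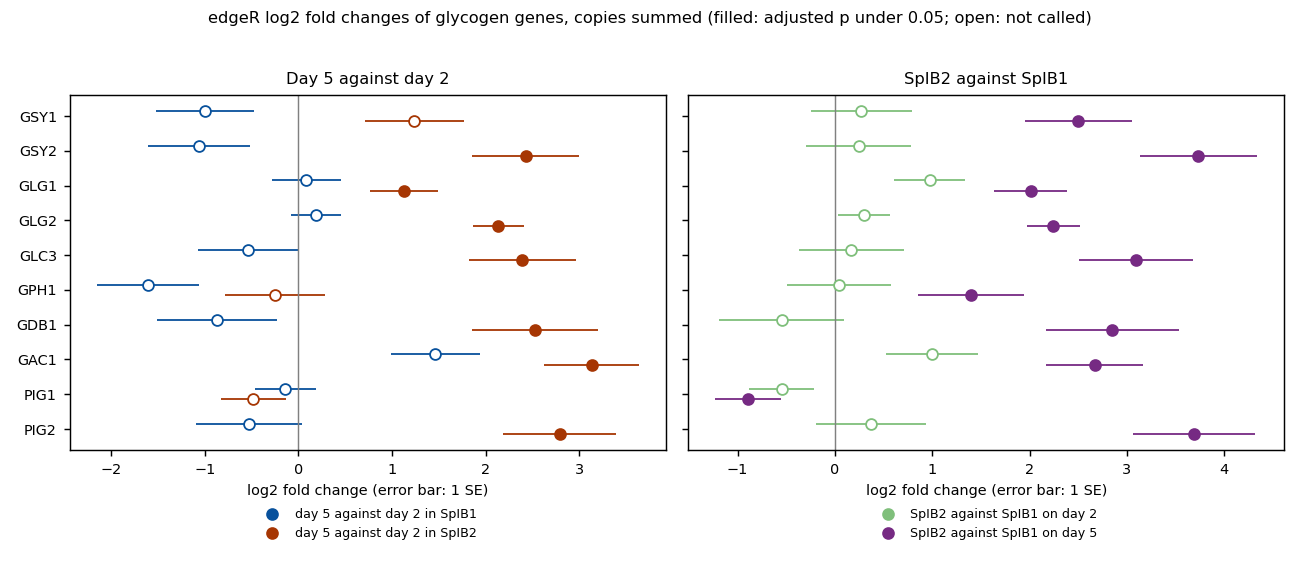
Log2 fold changes of the 10 genes with copies summed, from edgeR, with bars of 1 standard error (left, day 5 against day 2 in each strain; right, SpIB2 against SpIB1 on each day). Filled points passed an adjusted p under 0.05. The 10 points for SpIB1 between the days and for the strains on day 2 are open, while on day 5 GSY2 reaches 3.74 and PIG1 lies at -0.89.

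Ratios of reads within a library do not depend on the scaling between libraries. GPH1 gave 2.34, 2.54 and 2.24 reads per GSY2 read in SpIB1 on day 2 and 1.59, 1.41 and 1.79 on day 5. In SpIB2 it gave 2.20, 1.93 and 2.14 on day 2 and 0.362, 0.245 and 0.34 on day 5. The last group lay far below the other 3, whose lowest library was 1.41, and the libraries that stood apart in overall profile did not stand apart here. The mean was 0.317 ± 0.0634 (SD, n = 3) in SpIB2 on day 5, against 2.09 ± 0.142 on day 2, 2.37 ± 0.152 in SpIB1 on day 2 and 1.60 ± 0.189 on day 5. The log2 difference between the days was -2.74 in SpIB2 and -0.57 in SpIB1, and between the strains it was -2.35 on day 5 and -0.18 on day 2. Each of these 4 comparisons gave a two-sided exact permutation p of 0.1, the smallest that 3 against 3 allows. This ratio was not planned, and the share of other gene pairs that separate in this way was not computed.

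Reads of GPH1 and GDB1 together per read of GSY1, GSY2 and GLC3 together were 1.64 ± 0.124 (SD, n = 3) in SpIB1 on day 2, 1.26 ± 0.297 on day 5, 1.14 ± 0.190 in SpIB2 on day 2 and 0.607 ± 0.153 on day 5. The SpIB2 libraries of day 5 were the lowest, with 0.501 to 0.783 against 1.02 or more in SpIB1 and 0.928 or more in SpIB2 on day 2. This ratio holds the GPH1 and GSY2 reads of the ratio above, so it is not a separate observation. In SpIB2 the log2 day change was 2.53 for GDB1, 2.43 for GSY2 and -0.25 for GPH1. Without both libraries that stood apart these changes were 1.31, 1.73 and -1.12. GSY2 took 72.0 ± 1.44% of the reads of both synthase genes in SpIB1 on day 2, 71.0 ± 2.79% on day 5, 71.9 ± 4.63% in SpIB2 on day 2 and 84.7 ± 2.25% on day 5. All 10 genes together took 4764 ± 1724 CPM in SpIB1 on day 2, 3654 ± 1315 on day 5, 4941 ± 2912 in SpIB2 on day 2 and 15015 ± 4098 on day 5, before TMM scaling.

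**Figure D3:**
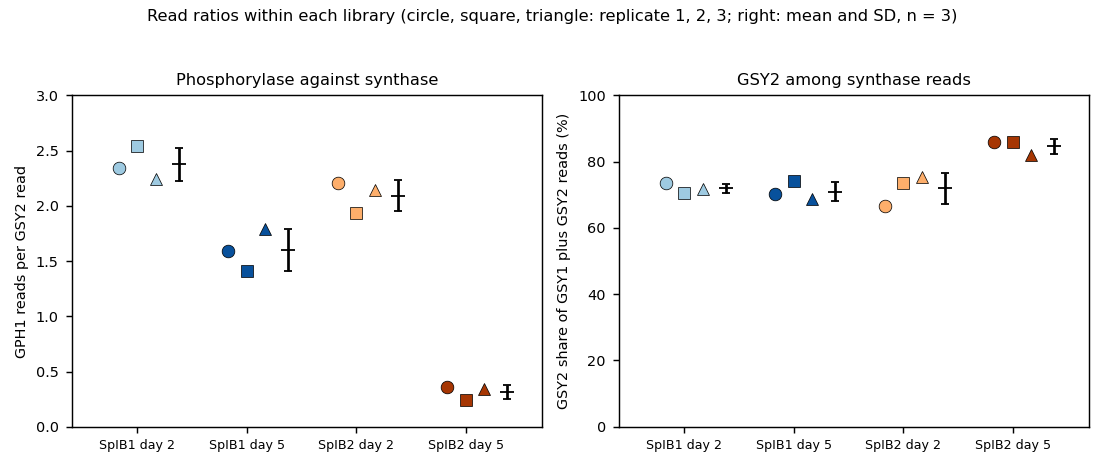
Read ratios within each library, with the mean and SD (n = 3) to the right of each group (left, GPH1 reads per GSY2 read; right, the percentage of GSY1 plus GSY2 reads that came from GSY2). SpIB2 on day 5 lies at 0.245 to 0.362 GPH1 reads per GSY2 read, below all 9 other libraries.

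The copies of a symbol did not always behave alike. Over single copies on day 5, 15 of 18 were higher in SpIB2, PIG1 was lower, and GLG2_1 and GPH1_1 were not called. In SpIB2, 12 of 18 copies rose from day 2 to day 5 and none fell, where 21.8% of all copies rose and 23.5% fell. In SpIB1, none of the 18 was called, where 0.863% of all copies rose and 2.61% fell. Unadjusted, 2 copies were higher and 4 lower there with edgeR, and DESeq2 called 1 higher and 3 lower. Of all copies in SpIB1, DESeq2 called 463 higher and 660 lower, and the unadjusted share was not computed. The difference of the day changes was higher in SpIB2 for 9 of the 18 copies and lower for none, where 14.6% of all copies were higher and 11.9% lower. On day 2, GLG2_1 was the 1 copy called, lower in SpIB2 by -0.69 ± 0.25 on the log2 scale (edgeR adjusted p = 0.0437), where 16% of all copies were lower and 19.3% higher. It was lost in 10 of 20 alternatives: each library of day 2, of either strain, and SpIB1 day 5 replicate 3 ended it when left out, with edgeR adjusted p from 0.053 to 0.115. Against 0 copies called higher on day 2, 8 of 18 were called higher without both libraries that stood apart, 4 without SpIB2 day 2 replicate 3, 3 without SpIB2 day 5 replicate 1, 1 without SpIB1 day 5 replicate 1 and 3 with DESeq2. Of all copies, 2055 of 10659 were higher in the main fit. The other fits gave 2836 of 10689, 2145 of 10689, 2678 of 10695, 1886 of 10690 and 2617 of 10641, in that order.

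The libraries of the strains did not overlap for 16 of the 18 copies on day 5, where 62% of all copies did not overlap, and for 6 on day 2, where 52.6% did not. Between the days they did not overlap for 9 copies in SpIB1, 2 higher and 7 lower on day 5, where 38.9% of all copies did not, and for 13 in SpIB2, all higher on day 5, where 47.4% did not.

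GLG2 showed the widest split between its copies. GLG2_2 gave 6.4, 17.3 and 19.0 CPM in SpIB1 on day 5 and 166.5, 97.2 and 110.1 in SpIB2, and it differed by 3.12 ± 0.39 on the log2 scale (edgeR adjusted p = 2.47e-05). GLG2_1 gave 12.1, 15.2 and 13.5 against 18.2, 9.96 and 16.5 CPM, which overlap, with a difference of 0.12 ± 0.24 (edgeR adjusted p = 0.699). With library totals GLG2_1 was lower in SpIB2 by -0.68. The share of GLG2 reads from GLG2_1 was 51.2 ± 12.5% (SD, n = 3) in SpIB1 and 10.7 ± 2.02% in SpIB2 on day 5.

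For GLC3 the split went the other way between copies. GLC3_1 stood at 106.3, 262.0 and 369.1 CPM in SpIB1 and 6124, 3112 and 2220 in SpIB2 on day 5, a difference of 3.96 ± 0.71 (edgeR adjusted p = 0.000366). GLC3_2 stood at 86.3, 319.3 and 344.6 against 1036, 587 and 376 CPM, a difference of 1.41 ± 0.51 (edgeR adjusted p = 0.0297). The latter call was lost without SpIB2 day 5 replicate 1 (0.94, edgeR adjusted p = 0.126) and without SpIB1 day 5 replicate 1 (0.96, 0.112). GLC3_1 took 85.1 ± 0.801% of GLC3 reads in SpIB2 on day 5 and 50.7 ± 5.13% in SpIB1. In SpIB2 on day 2 it took 74.7%, 68.0% and 33.7%, and the low value belongs to replicate 3, which stood apart.

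Of the GPH1 copies, GPH1_1 stood at 62.1, 174.3 and 211.2 CPM in SpIB1 and at 204.3, 162.5 and 133.4 in SpIB2 on day 5, which overlap (log2 difference 0.16 ± 0.63, edgeR adjusted p = 0.845). GPH1_2 differed by 2.10 ± 0.53 (edgeR adjusted p = 0.004), or 1.49 without SpIB2 day 5 replicate 1. GPH1_3 differed by 1.75 ± 0.52 (edgeR adjusted p = 0.0111), and was not called without SpIB2 day 5 replicate 1 (1.19, adjusted p = 0.0511) or SpIB1 day 5 replicate 1 (1.45, 0.0564). GPH1_1 took 38.9 ± 2.41% of GPH1 reads in SpIB1 on day 2, 33.6 ± 6.18% on day 5, 26.1 ± 10.3% in SpIB2 on day 2 and 15.4 ± 4.07% on day 5.

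Both copies of GSY2, PIG2 and GAC1 were higher in SpIB2 on day 5. GSY2_2 gave the largest difference of any copy, with 43.2, 99.6 and 117.5 CPM in SpIB1 against 3277, 2122 and 1326 in SpIB2 (4.69 ± 0.70, edgeR adjusted p = 8.71e-05). GSY2_1 differed by 3.05 ± 0.54, PIG2_1 by 3.39 ± 0.63, PIG2_2 by 4.32 ± 0.65, GAC1_1 by 2.60 ± 0.51 and GAC1_2 by 2.97 ± 0.52 on the log2 scale. Without SpIB2 day 5 replicate 1 these were 2.78 for PIG2_1, 3.71 for PIG2_2, 1.81 for GAC1_1 and 2.02 for GAC1_2. The copies of GSY1 differed by 2.00 ± 0.47 and 3.16 ± 0.60.

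On day 5 the share of copy 1 did not overlap between the strains in any of the 6 genes with 2 copies, and on day 2 in 5 of 6, GLC3 being the exception. Among the 3890 symbols with 2 copies and enough reads, 69.2% did not overlap on day 5 and 67% on day 2, so separate shares are common between these strains. Between the days the shares did not overlap in 4 of the 6 genes in SpIB1 (background 35%) and in 4 of 6 in SpIB2 (background 44.5%). The copy 1 share of GSY1 was 60.6 ± 3.09% in SpIB1 and 39.4 ± 4.91% in SpIB2 on day 5, and that of GSY2 was 67.9 ± 2.53% and 40.1 ± 2.73%. The files do not say which parent species a copy comes from.

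**Figure D4:**
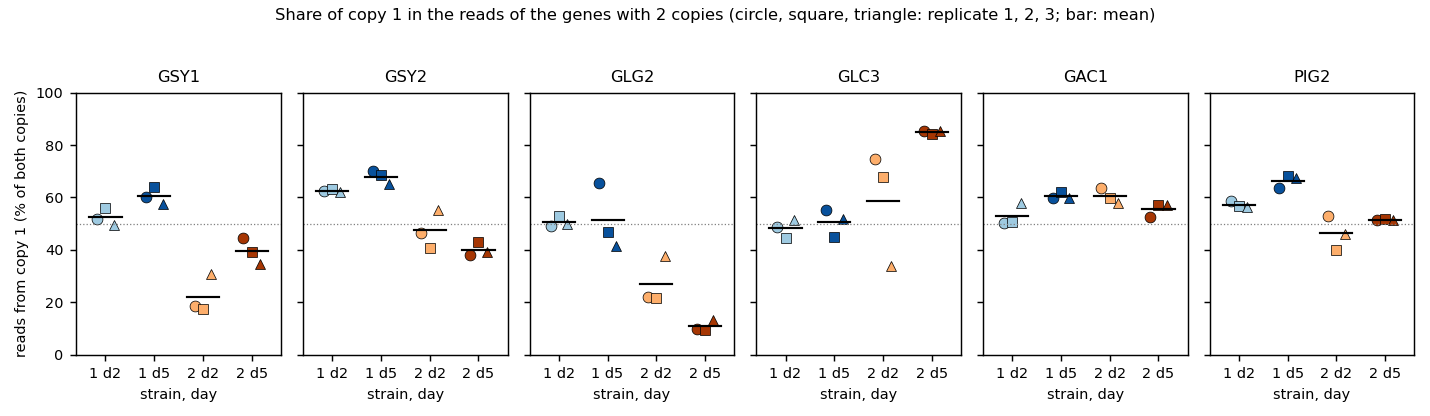
Percentage of each gene's reads that came from copy 1, for the 6 genes with 2 copies, in each library of SpIB1 (1) and SpIB2 (2) on day 2 (d2) and day 5 (d5), with bars at the mean. GLC3 reaches 85.1% in SpIB2 on day 5 and GLG2 falls to 10.7%, and the other 4 genes lie between these values.

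Other genes of glycogen metabolism were taken from a list of 14 symbols: enzymes that supply UDP-glucose, type 1 phosphatase and its regulators, the Pho85 kinase and its cyclins, the PAS kinases and a sporulation glucoamylase. On day 5, 7 of the 14 were higher in SpIB2 and none lower, where 28.3% of all symbols were higher and 26.7% lower. On day 2, GLC7 and GLC8 were higher and none lower, a share near the 14.9% of all symbols called higher. GLC7, the catalytic subunit of type 1 phosphatase, was 2.83-fold higher in SpIB2 on day 2 (edgeR adjusted p = 0.0107), lost without SpIB1 day 2 replicate 1 (log2 1.46, adjusted p = 0.0546) or SpIB2 day 2 replicate 1 (1.02, 0.0633). GLC8, a regulator of that phosphatase, differed by 0.96 ± 0.33 (edgeR adjusted p = 0.0448), lost in 10 of 20 alternatives and at 0.59 without SpIB2 day 2 replicate 1 (0.233). In SpIB2, 7 rose between the days and 2 fell, where 22.2% of all symbols rose and 24.4% fell, and in SpIB1 none was called. Some of these calls were weak. PCL8, for a Pho85 cyclin, was lost in 15 of 20 alternatives for the day 5 difference (0.34 without SpIB2 day 5 replicate 1, edgeR adjusted p = 0.188, and -0.16 with library totals) and in 7 for the rise (0.46 without that library, 0.104). The rise of GLC8 was lost in 5, among them without SpIB2 day 2 replicate 2 (0.91, edgeR adjusted p = 0.0687) or 3 (0.88, 0.0619) and without both libraries that stood apart (0.70, 0.0989). The day 5 difference of PSK2 was lost with library totals (0.19, edgeR adjusted p = 0.472). The difference of the day changes was higher in SpIB2 for 5 of the 14, against 15.8% of all symbols, namely PGM2, UGP1, GIP2, PSK1 and PSK2. The call of UGP1 was lost without SpIB1 day 2 replicate 3, SpIB1 day 5 replicate 1 or 2, SpIB2 day 2 replicate 1 or 3, or SpIB2 day 5 replicate 1, with edgeR adjusted p from 0.0537 to 0.0872. That of PSK1 was lost without SpIB1 day 2 replicate 3 or SpIB1 day 5 replicate 1 or 2, with edgeR adjusted p from 0.0525 to 0.0574.

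PGM2, the main phosphoglucomutase that makes glucose 1-phosphate for UDP-glucose, gave 273, 661 and 783 CPM in SpIB1 on day 5 and 6211, 5740 and 4347 in SpIB2. The groups did not overlap, and the log2 difference was 3.25 ± 0.55 (edgeR adjusted p = 0.00033). It rose by 1.92 ± 0.52 in SpIB2 (edgeR adjusted p = 0.00946). UGP1, which makes UDP-glucose, gave 125, 268 and 316 against 2421, 1086 and 1012 CPM, a difference of 2.67 ± 0.48 (edgeR adjusted p = 0.000501). The rise of summed UGP1 in SpIB2 was 1.53 ± 0.46 (edgeR adjusted p = 0.0158), lost without SpIB2 day 5 replicate 1 (1.01, adjusted p = 0.0671) and without SpIB2 day 2 replicate 1 (1.45, 0.0525), and at 0.82 without both libraries that stood apart (0.133). Its copies split: between the days of SpIB2 the mean of UGP1_3 went from 271 to 1405 CPM. UGP1_1 went from 88.3 to 58.1 and UGP1_2 from 150 to 101. PGM1, the minor phosphoglucomutase, fell in SpIB2 by -0.62 ± 0.21 (edgeR adjusted p = 0.0244), a call lost without SpIB2 day 5 replicate 1 (-0.49, 0.0596), SpIB2 day 2 replicate 1 (-0.62, 0.0517) or replicate 2 (-0.56, 0.0652). Its copy PGM1_2 had 0 reads in every SpIB1 library, below the floor of 3 reads, and a mean of 7.44 ± 1.82 CPM (SD, n = 3) in SpIB2 on day 5.

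GIP2, a putative type 1 phosphatase subunit, gave 287, 422 and 592 CPM in SpIB1 on day 5 and 5420, 1725 and 1859 in SpIB2 (log2 difference 2.79 ± 0.50, edgeR adjusted p = 0.000507, and 2.05 without SpIB2 day 5 replicate 1). It rose by 2.93 ± 0.50 in SpIB2 (edgeR adjusted p = 0.000714), or 2.18 without that library. The PAS kinases Psk1 and Psk2 are known in Saccharomyces cerevisiae to act on Ugp1 and on glycogen synthase. Summed PSK2 rose in SpIB2 by 1.26 ± 0.19 (edgeR adjusted p = 0.000323). Here too the copies split, with the mean of PSK2_1 going from 26.2 to 102 CPM between the days of SpIB2 and that of PSK2_2 from 19.6 to 12.6. PSK1 rose by 2.01 ± 0.47 (edgeR adjusted p = 0.00423), or 1.26 without SpIB2 day 5 replicate 1. The strain difference of PSK1 on day 5 was 1.40 ± 0.46 (edgeR adjusted p = 0.02), lost without SpIB2 day 5 replicate 1 (0.64, adjusted p = 0.13), SpIB1 day 5 replicate 1 (1.24, 0.0783) and replicate 2 (1.35, 0.0602). PCL10, a cyclin that directs Pho85 to glycogen synthase, fell in SpIB2 by -1.04 ± 0.29 (edgeR adjusted p = 0.0101), and by -0.52 without both libraries that stood apart (0.09).

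**Figure D5:**
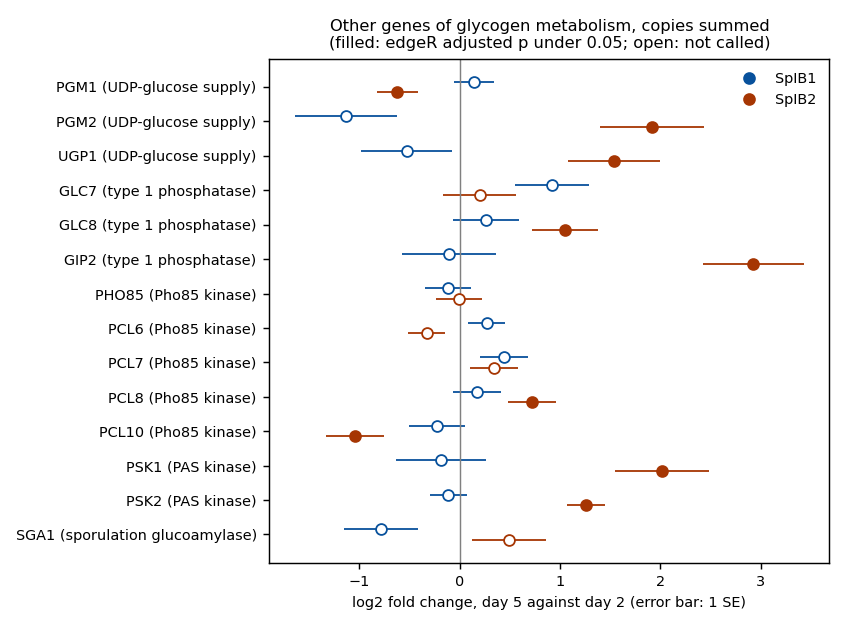
Log2 change from day 2 to day 5 in SpIB1 and SpIB2 for 14 other genes of glycogen metabolism with copies summed, from edgeR, with bars of 1 standard error. Filled points passed an adjusted p under 0.05. GIP2 at 2.93 and PSK1 at 2.01 lead the filled points of SpIB2, PCL10 lies at -1.04, and all points of SpIB1 are open.

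The pattern of GSY2 over the 12 libraries was most like that of PGM2 among 4580 other symbols with a mean of at least 10 CPM, with Pearson's r of 0.989 on log2 values. STB2 followed at 0.986 and SFA1 at 0.982. For GPH1 the most alike were TPS3 at 0.976, PIR3 at 0.942 and MYO3 at 0.932. Among the 10 genes, the 28 pairs that leave out GPH1 and PIG1 had r from 0.668 to 0.981, the highest being GSY2 with GLC3. GPH1 reached at most 0.764 with any other member, and PIG1 was negative with all 9, down to -0.762 with GAC1. These values describe 12 libraries in 4 groups, which share strain, day and the libraries that stood apart.

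Sporulating yeast expresses genes of its own and breaks glycogen down with a separate enzyme, so 8 sporulation markers were listed beside the glycogen genes. Their summed level was 114 to 143 CPM in SpIB1 on day 2, 89.99 to 95.2 on day 5, 102 to 114 in SpIB2 on day 2 and 238 to 428 on day 5. IME2, an early meiotic kinase, accounts for the last range: it gave 14.7, 15.7 and 17.9 CPM in SpIB1 on day 5 and 368, 215 and 158 in SpIB2. Without IME2 the sum was 59.96 to 87.97 CPM in SpIB2 on day 5 and 72.6 to 79.5 in SpIB1. That sum holds opposite directions: on day 5 mean DIT1 was 10.7 CPM in SpIB1 and 24.6 in SpIB2, and mean SPR3 28.9 and 10.6. On day 5, edgeR called 2 of the 8 markers higher in SpIB2 and 1 lower, where 28.3% of all symbols were higher and 26.7% lower. None of the 8 was at 0 in all libraries of a group. The part of these markers in the glycogen results was not tested.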

How the data were processed

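The authors deposited whole-number read counts per gene copy, not normalised, in 1 table for each of the 12 libraries. The submitters' processing notes list edgeR 3.34.0, HTSeq 0.11.1, STAR 2.7.3a and Trimmomatic 0.38, with no role stated. For the genome build, annotation, strand setting and multi-mapping reads, details were not given in the sources used here. Per the labels' protocols, RNA was extracted with hot phenol, kept only at an integrity number over 8, and made into polyA libraries.

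Of 11312 copies per table, 35 held a cell that was not a number and were left out, none among the glycogen genes. Counts were tested in R 4.3.3 with edgeR 4.0.16 (filterByExpr, TMM, robust quasi-likelihood fit, 1 coefficient per group, 8 residual degrees of freedom) for 10659 copies and, with copies summed, 6171 symbols. A symbol with an unreadable copy was left out of the sums. Adjusted p-values are Benjamini-Hochberg over all features of a table, with calls at 0.05. Standard errors are the log2 fold change divided by the square root of F. A floor of 3 reads equals 0.379 to 0.584 CPM, for counting error only. Alternatives were library totals, median-ratio size factors, no filter, a minimum mean count of 50, a local dispersion fit in DESeq2 1.42.0, a block for the replicate number, a fit of just the libraries compared, the SpIB2 libraries that stood apart left out, and each library left out. Applying them to single copies and other genes was decided after seeing the data. The ratio of GPH1 to GSY2 reads was likewise not among the planned results. Likeness used log2 of CPM plus 1. The tests were tested on simulated data.

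The genes and lists were chosen with earlier results of these data known. All copies of the 10 symbols are named, then the other listed genes that passed the test and the 3 symbols most alike in pattern to GSY2 and to GPH1. No sequences or promoters were used here.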

Additional observations from a re-analysis of the deposited data

Results flagged for a closer look

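The day change differed between the strains by the interaction test of edgeR. Summed over copies, SpIB2 minus SpIB1 was 2.23 for GSY1, 3.49 for GSY2, 1.95 for GLG2, 2.93 for GLC3, 3.40 for GDB1 and 3.31 for PIG2 on the log2 scale. Of single copies it was 3.18 for GSY1_1, 3.32 for GSY2_1, 3.88 for GSY2_2, 2.24 for GLG2_2, 3.39 for GLC3_1, 2.21 for GAC1_2, 3.335 for PIG2_1 and 3.62 for PIG2_2. The call of GAC1_2 was lost in 10 of 19 alternatives, among them without SpIB1 day 2 replicate 3 (2.00, edgeR adjusted p = 0.0778), and its value was 1.24 without SpIB2 day 5 replicate 1. The call of GLC3_1 was lost without SpIB1 day 2 replicate 3 (2.90, edgeR adjusted p = 0.0501).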

How the results depend on the processing

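Of 50 results for the summed genes, 40 kept their side of the threshold under all alternatives run, and 19 of 23 calls were never lost. The sign of 7 results that were not called turned in at least 1 alternative: GSY1, GSY2, GLC3 and GPH1 on day 2, GLG1 and PIG1 between the days in SpIB1, and GPH1 between the days in SpIB2. For the day 2 comparison of the strains, 0 of the 18 copies were higher, against 1 with library totals, 3 with DESeq2, 8 without the SpIB2 libraries that stood apart and 3 with only the libraries compared. Over the whole table these were 2055 of 10659, against 1452 of 10659, 2617 of 10641, 2836 of 10689 and 2346 of 10566. There 1 of the 18 was lower, against 0 with median-ratio factors, 2 with DESeq2, 0 with the block and 0 with summed counts. Whole-table counts of lower copies were 1707, against 1624, 2106 and 1434 with the first 3 of these. On day 5, 15 of the 18 were higher, or 9 symbols with summed counts. There 1 was lower, against 2 with library totals and 0 with median-ratio factors, the block, only the libraries compared or without the libraries that stood apart. The whole table gave 2824 lower, against 4863, 2659, 2596, 2624 and 3096 in that order. In SpIB1, 0 of the 18 rose between the days, against 2 with library totals, 1 with DESeq2, 2 without the SpIB2 libraries that stood apart and 2 with only the libraries compared. The whole table gave 92 of 10659, against 155 of 10659, 463 of 10641, 766 of 10689 and 1070 of 10336. In SpIB1, 0 of the 18 fell, against 3 with DESeq2, 4 without those libraries and 5 with only the libraries compared. Here the whole table gave 278, against 660, 993 and 1134. In SpIB2, 12 of the 18 rose, or 7 symbols with summed counts, and 0 fell, against 1 with library totals and 1 without the libraries that stood apart. There 2508 of all copies fell, against 3611 and 2087. Leaving out each library gave, of the 18 copies, 0 to 4 higher and 0 to 2 lower on day 2, 13 to 15 and 0 to 1 on day 5, 0 to 2 and 0 to 1 in SpIB1, 11 to 13 and 0 to 1 in SpIB2, and 7 to 12 and 0 to 0 for the difference. For the difference the whole table ran from 997 to 1769 higher and from 602 to 1493 lower in these fits. With library totals the sign turned for GLG2_1 (-0.68) and for PCL8 (-0.16) on day 5. The cause was not tested.

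Over all groups, including pairs across strains, 4 of 18 same-numbered pairs correlated above 0.1 (range -0.573 to 0.481). Of the 12 libraries, 2 correlated best with their own number. Between the days of SpIB1, numbers 1, 2 and 3 gave 0.481, 0.00336 and 0.388. Between those of SpIB2 they gave -0.405, -0.325 and -0.0353. Whether replicate numbers pair the days of a strain was therefore not settled. With the replicate block, 15 of the 18 copies were higher on day 5, 12 rose in SpIB2 and 8 were called for the difference, against 9 in the main fit. The whole table with the block gave 2918 higher on day 5, 2007 rising in SpIB2, and 1146 higher and 801 lower for the difference, of 10659 copies. The block ended the day 5 calls of GPH1 (edgeR adjusted p = 0.0818), PIG1 (0.0795), PCL8 (0.0793) and PSK1 (0.0522), the day 2 calls of GLC8 (0.0833) and GLG2_1 (0.0733), the rise of PCL8 (0.0519), and the differences of GSY1 (0.071), UGP1 (0.0608) and GAC1_2 (0.0697).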
